A study of Mus musculus with 8 samples.

Results

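Tumour necrosis factor (TNF), its receptors and the NF-kB proteins that act downstream of them were examined in whole aortas of atherosclerotic mice. The genes were Tnf, Tnfrsf1a, Tnfrsf1b, Tnfaip3, Nfkb1, Nfkb2, Rela, Relb, Rel and Nfkbia, 10 in all. Each was taken as the row of the deposited gene table that carries its symbol, and Nfkb1, which has more than 1 such row, as the row with the most counts. The table has 48607 loci, of which 20506 reached 1 FPKM (fragments of RNA per unit of transcript length, relative to all fragments mapped in that library) in at least 3 of 8 libraries, and all 10 genes were among these.

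The study asked what loss of NPRC, the natriuretic peptide clearance receptor encoded by Npr3, does to the atherosclerotic aorta. All mice lacked ApoE and were fed a Western diet for 12 weeks, so the comparison is of NPRC-/-ApoE-/- with ApoE-/- mice and includes no mouse with ApoE and no mouse on chow. NPRC was deleted in the whole body, by a CRISPR frameshift in the first exon of Npr3, so it was missing from every cell type of the wall. By title, 5 libraries are ApoE-/- and 3 are NPRC-/-ApoE-/-, and libraries are called by title here. A separate genotype entry of each library names the same genotype for 4 libraries, ApoE-/- 1, 2 and 3 and NPRC-/-ApoE-/- 3. ApoE-/- 4 and 5 are entered as Nprc-/-Apoe-/-, whereas NPRC-/-ApoE-/- 1 and 2 are entered as Apoe-/-. Which label applies is not given in the sources used here, so the 10 genes were compared by title and again by genotype entry.

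TNF is a cytokine made mainly by macrophages and lymphocytes, which is shed from the cell surface and binds a pair of receptors, TNFR1 (Tnfrsf1a) on most cells and TNFR2 (Tnfrsf1b) on leukocytes and endothelium. In resting cells, IkB proteins such as IkB-alpha (Nfkbia) hold NF-kB dimers in the cytoplasm. Receptor signalling through ubiquitin ligases and the IKK kinases leads to breakdown of IkB, and the freed dimers of RELA, REL and RELB with the products of Nfkb1 (p50) and Nfkb2 (p52) then turn on genes of inflammation. Nfkbia and Tnfaip3 (A20, a ubiquitin-editing enzyme) are themselves induced by NF-kB and shut the signal off. NF-kB in the plaque is known for driving adhesion molecules and chemokines that draw monocytes into the wall. Most of this control acts on protein, which RNA levels do not measure.

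RefSeq promoter windows of GRCm38.p6, each 250 bases before and 50 after a start site, were at hand for 8 of the 10 genes and were searched on both strands for the NF-kB consensus decamer. The decamer was found for Tnfaip3, Nfkb2, Rel and Nfkbia, while the windows of Tnf, Tnfrsf1a, Tnfrsf1b and Rela hold none. The window at the other start site of Tnfaip3 holds none either. Of all 32851 windows, 8.46% hold it, and 9.55% of 27025 genes have it in a window. The sites are shown because these 4 genes belong to the loop by which NF-kB acts on its own subunits and inhibitors, and the letters in capitals are the decamer. Each is given 5′ to 3′ on the strand of its gene with 10 bases on either side.
Tnfaip3, chr10:19015516-19015545, minus strand: gactcacgcgGGGACACCCCggggcgggac
Tnfaip3, chr10:19015403-19015432, minus strand: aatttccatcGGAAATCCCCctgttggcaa
Nfkb2, chr19:46304688-46304717, plus strand: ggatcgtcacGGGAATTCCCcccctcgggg
Nfkb2, chr19:46304716-46304745, plus strand: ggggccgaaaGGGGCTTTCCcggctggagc
Rel, chr11:23771042-23771071, minus strand: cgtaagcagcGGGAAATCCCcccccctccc
Nfkbia, chr12:55492657-55492686, minus strand: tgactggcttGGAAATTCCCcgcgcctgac
The nearer Tnfaip3 decamer lies 12 to 3 bases before the start site and the farther one 125 to 116 bases before it. The Nfkb2 decamers begin 39 and 11 bases before the most upstream of its 3 start sites, that of Rel begins 92 bases and that of Nfkbia 29 bases before the start. The first Nfkb2 site and the Rel site each overlap a further match shifted by 1 base. The windows at the other start sites of Nfkb2 hold the decamer too, at chr19:46305449-46305478 (tccgacggcaGGAATGTCCCcacaaaagcc) and chr19:46305695-46305724 (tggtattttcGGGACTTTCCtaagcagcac). At least 2 matches, overlapping ones included, occur in 1.22% of all windows. A match describes the letters only, and no binding was measured.

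The libraries held 62969165 to 86693276 counts each, so that 1 count is a small share of any library, and no pair of libraries differed by as little as counting noise. Npr3, the targeted gene, was at 0.62 to 1.69 FPKM in the 5 ApoE-/- libraries and at 1.13 to 1.39 FPKM in the 3 NPRC-/-ApoE-/- libraries, and a frameshift need not lower its RNA, so it does not settle which label holds. Markers of the aortic wall were present in every library, with smooth muscle markers summing to 1300 to 2890 FPKM. The 8 macrophage markers summed to 598 to 1820 FPKM in the 5 ApoE-/- libraries and 291 to 957 FPKM in the 3 NPRC-/-ApoE-/- libraries, and all 8 were lower by title, 3 with an unadjusted p under 0.05. The 6 smooth muscle markers were all higher by title, each with an unadjusted p under 0.05. The 7 immediate early genes, which respond to handling of tissue, summed to 83.4 to 365 FPKM and 70.3 to 90.2 FPKM, and were all lower by title, 6 with an unadjusted p under 0.05. Endothelial markers summed to 77.3 to 88.0 FPKM and 76.3 to 82.8 FPKM. None of these markers had an adjusted p under 0.05 (edgeR), and no macrophage, smooth muscle or endothelial marker was at 0 in any library. In whole tissue, fewer cells of a type and less RNA per cell cannot be told apart. The immediate early genes summed to 350, 365 and 208 FPKM in ApoE-/- 2, 3 and 4. In ApoE-/- 1 and 5 they summed to 104 and 83.4 FPKM, near the NPRC-/-ApoE-/- libraries. Skeletal muscle markers summed to 0.89, 0.83 and 0.52 FPKM in ApoE-/- 2, 3 and 4 and to 4.25 to 7.38 FPKM in the others. This split follows neither title nor genotype entry, and its part in the results was not tested.

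By title, all 10 genes had a lower mean in NPRC-/-ApoE-/- than in ApoE-/- aortas, with a median log2 fold change of -0.42, from -1.06 for Tnfrsf1b to -0.01 for Nfkbia. The median was -0.27 without NPRC-/-ApoE-/- 2 and -0.63 without NPRC-/-ApoE-/- 1, the ends of its range with 1 library left out. Of all tested loci, 50.9% were lower and the median was -0.01. An unadjusted p under 0.05 was reached by 2 of the 10 genes, Tnfrsf1b and Rel, against 13.6% of all tested loci in either direction and 7.13% of them in the lower direction. The criterion of the study, an unadjusted p under 0.05 with a fold change above 2 or below 0.5, was met by 1 of the 10 genes, Tnfrsf1b, against 3.47% of all loci. With edgeR's adjusted p under 0.05, 0% of loci and 0 of the 10 genes passed, while 2797 loci had an unadjusted p under 0.05. DESeq2 gave 650 loci an adjusted p under 0.05 and limma on log2(FPKM + 1) gave 2, none of them 1 of the 10 genes, and limma with array quality weights gave 1168, of which Rel was 1. The titled groups overlapped for each of the 10 genes, whereas 3.69% of all loci were lower without overlap.

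**Figure D1:**
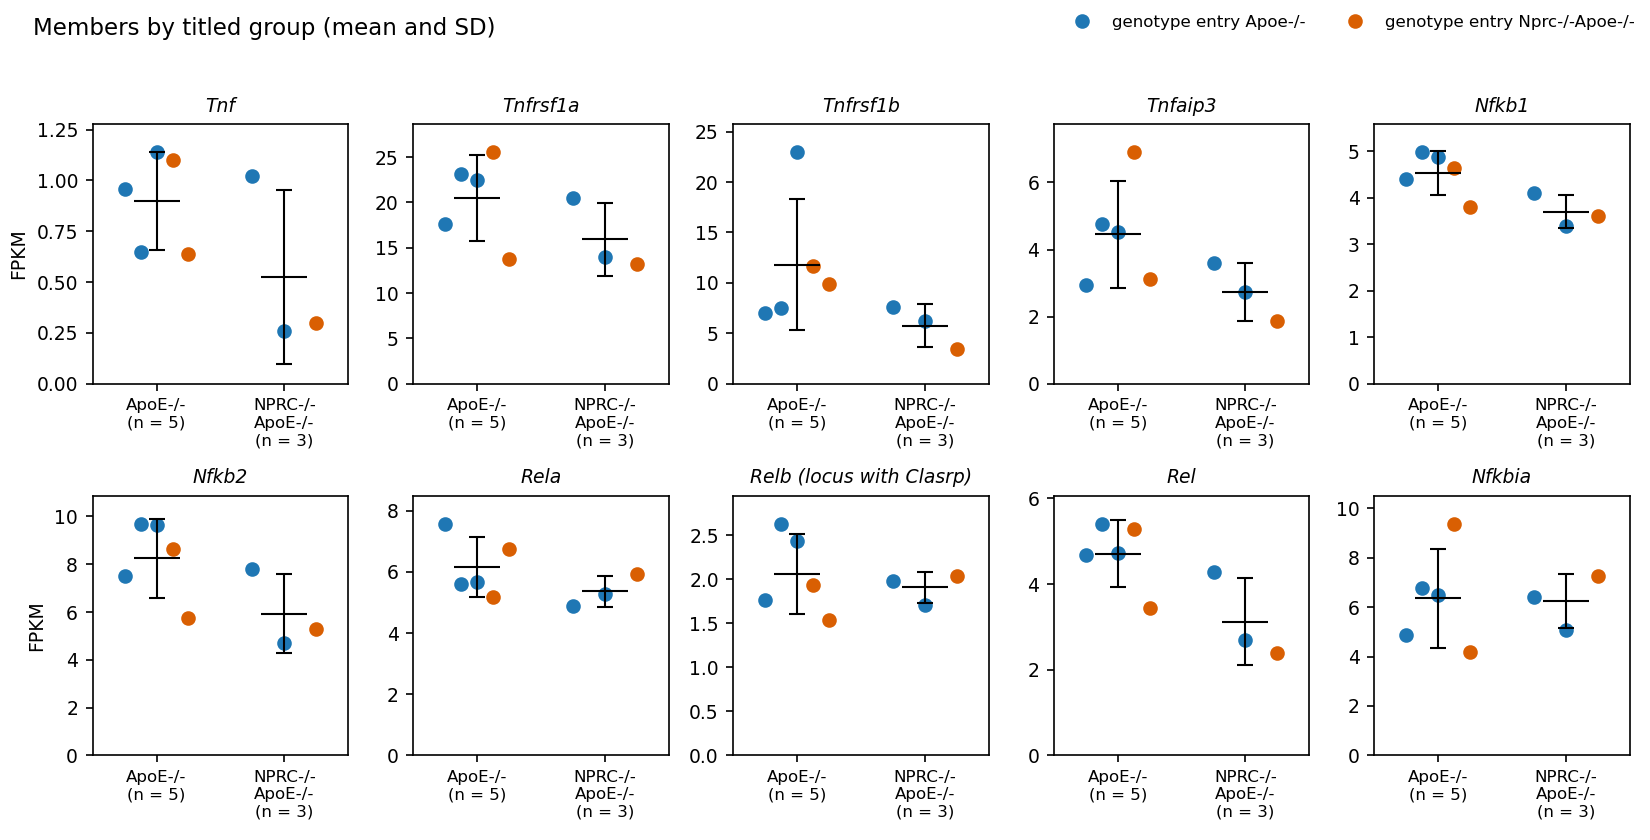
Level of each of the 10 genes in FPKM (y axis, from 0) in the 8 libraries by title (x axis), with the mean and SD of each titled group as bars and the genotype entry as colour. NPRC-/-ApoE-/- 1, the left point of its group, sits within the range of the ApoE-/- libraries for every gene except Rela, where at 4.90 FPKM it is the lowest of all.

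Tnf, the ligand (chr17:35199381-35202007 in GRCm38, minus strand), was the least abundant of the genes. It stood at 0.96, 0.65, 1.14, 1.10 and 0.64 FPKM in ApoE-/- 1 to 5 and at 1.02, 0.26 and 0.30 FPKM in NPRC-/-ApoE-/- 1 to 3. NPRC-/-ApoE-/- 2 and 3 were below all other libraries, with 34 and 51 counts, while NPRC-/-ApoE-/- 1 was among the 3 highest. The mean was 0.898 ± 0.240 FPKM (SD, n = 5) against 0.527 ± 0.428 FPKM (SD, n = 3), a log2 fold change of -0.77 ± 0.48 (SE). The difference did not pass (adjusted p = 0.497, two-sided exact permutation p of log2 CPM = 0.143). Tnf reached 1 FPKM in exactly 3 libraries, the minimum for testing, and the log2 fold change was -1.63 without NPRC-/-ApoE-/- 1, -0.43 without NPRC-/-ApoE-/- 2 and -0.49 without NPRC-/-ApoE-/- 3.

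Tnfrsf1a (chr6:125349362-125362484, plus strand), which encodes TNFR1, the receptor with a death domain, was the most abundant in FPKM. By that measure it exceeded each of the other 9 genes in all libraries except for Tnfrsf1b in ApoE-/- 3. It stood at 17.65, 23.16, 22.48, 25.58 and 13.78 FPKM in ApoE-/- 1 to 5 and at 20.51, 14.01 and 13.22 FPKM in NPRC-/-ApoE-/- 1 to 3. ApoE-/- 5 lay with the 2 low NPRC-/-ApoE-/- libraries, and NPRC-/-ApoE-/- 1 lay within the ApoE-/- range. The log2 fold change was -0.36 ± 0.25 (SE, adjusted p = 0.537).

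Tnfrsf1b (chr4:145212850-145246870, minus strand), which encodes TNFR2, the receptor without a death domain, varied most, with 6.64 times between its highest and its lowest library. It stood at 6.98, 7.49, 22.99, 11.71 and 9.93 FPKM in ApoE-/- 1 to 5 and at 7.61, 6.23 and 3.46 FPKM in NPRC-/-ApoE-/- 1 to 3. ApoE-/- 3 stood far above all others, and the groups overlapped through NPRC-/-ApoE-/- 1, which was above ApoE-/- 1 and 2. The means were 11.8 ± 6.53 FPKM (SD, n = 5) and 5.77 ± 2.11 FPKM (SD, n = 3), with a log2 fold change of -1.06 ± 0.46 (SE, adjusted p = 0.357, exact permutation p = 0.107). Without ApoE-/- 3 the log2 fold change was -0.61, and the unadjusted p was then above 0.05. The ratio of Tnfrsf1a to Tnfrsf1b in FPKM ran from 0.978 in ApoE-/- 3 to 3.82 in NPRC-/-ApoE-/- 3, with a median of 2.39. The macrophage markers summed to 1700 FPKM in ApoE-/- 3 and to 291 FPKM in NPRC-/-ApoE-/- 3, the libraries with the highest and lowest Tnfrsf1b. ApoE-/- 3 and 4 were the highest and NPRC-/-ApoE-/- 2 and 3 the lowest libraries for both Tnfrsf1b and these markers. Between them the order differed, since the markers summed to 1180 and 598 FPKM in ApoE-/- 2 and 5, where Tnfrsf1b was at 7.49 and 9.93 FPKM. The part of these markers in this result was not tested.

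Among the genes of the NF-kB subunits, Rel (chr11:23736847-23770970, minus strand), whose product c-Rel is most abundant in lymphoid and myeloid cells, differed most. It stood at 4.67, 5.41, 4.72, 5.28 and 3.43 FPKM in ApoE-/- 1 to 5 and at 4.28, 2.70 and 2.38 FPKM in NPRC-/-ApoE-/- 1 to 3. NPRC-/-ApoE-/- 2 and 3 were below every ApoE-/- library, and NPRC-/-ApoE-/- 1 was above ApoE-/- 5 alone. The means were 4.70 ± 0.783 FPKM (SD, n = 5) and 3.12 ± 1.02 FPKM (SD, n = 3), a log2 fold change of -0.58 ± 0.23 (SE, adjusted p = 0.328, exact permutation p = 0.0714). Rel was the only one of the 10 genes with an adjusted p under 0.05 in any of the settings tried, namely 0.0434 in limma with array quality weights, where 1168 of 20506 loci had such an adjusted p.

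Nfkb2 (chr19:46304320-46312385, plus strand), the gene of p100 and p52 in the non-canonical arm, stood at 7.50, 9.70, 9.64, 8.63 and 5.75 FPKM in ApoE-/- 1 to 5. In NPRC-/-ApoE-/- 1 to 3 it stood at 7.80, 4.70 and 5.27 FPKM. Here too NPRC-/-ApoE-/- 2 and 3 were the lowest libraries in FPKM and ApoE-/- 5 came next, whereas in log2 CPM ApoE-/- 5 lay between them. The log2 fold change was -0.47 ± 0.24 (SE, adjusted p = 0.420). Nfkb1 (chr3:135584655-135691546, minus strand), the gene of p105 and p50 in the canonical arm, was the least variable, with 1.47 times between its highest and lowest library. It stood at 4.41, 4.99, 4.88, 4.64 and 3.80 FPKM in ApoE-/- 1 to 5 and at 4.11, 3.40 and 3.61 FPKM in NPRC-/-ApoE-/- 1 to 3. The order at the low end was that of Nfkb2, in FPKM and in log2 CPM, and the log2 fold change was -0.28 ± 0.15 (SE, adjusted p = 0.433). A further locus named Nfkb1 lies on the opposite strand within the gene, at chr3:135674472-135691043, with 1.63 to 3.24 FPKM. Whether the counting used strand is not given in the sources used here, so reads could be split between both loci.

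Rela (chr19:5637483-5648130, plus strand), the gene of p65, the main activating subunit of canonical signalling, did not follow the order of the other subunits. It stood at 7.58, 5.62, 5.68, 5.17 and 6.76 FPKM in ApoE-/- 1 to 5 and at 4.90, 5.28 and 5.92 FPKM in NPRC-/-ApoE-/- 1 to 3. The highest libraries were ApoE-/- 1 and 5, and NPRC-/-ApoE-/- 1 was the lowest, while NPRC-/-ApoE-/- 2 and 3 lay within the ApoE-/- range in FPKM. In log2 CPM, NPRC-/-ApoE-/- 2 was also below every ApoE-/- library. The log2 fold change was -0.17 ± 0.14 (SE, adjusted p = 0.624). Relb, the partner of p52, could not be measured alone, since its locus, chr7:19581035-19629438, also spans the neighbouring gene Clasrp on the same strand. That joint locus stood at 1.54 to 2.63 FPKM in the 5 ApoE-/- libraries and at 1.71 to 2.03 FPKM in the 3 NPRC-/-ApoE-/- libraries, with a log2 fold change of -0.09 ± 0.21 (SE, adjusted p = 0.867).

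The feedback inhibitors did not share their order of libraries. Tnfaip3 (chr10:19000910-19015410, minus strand) stood at 2.94, 4.75, 4.52, 6.91 and 3.13 FPKM in ApoE-/- 1 to 5 and at 3.59, 2.74 and 1.88 FPKM in NPRC-/-ApoE-/- 1 to 3. NPRC-/-ApoE-/- 2 and 3 were below all others, and ApoE-/- 4 was the highest. The log2 fold change was -0.71 ± 0.34 (SE, adjusted p = 0.389, exact permutation p = 0.143). Nfkbia stood at 4.87, 6.79, 6.51, 9.38 and 4.20 FPKM in ApoE-/- 1 to 5 and at 6.39, 5.08 and 7.27 FPKM in NPRC-/-ApoE-/- 1 to 3. NPRC-/-ApoE-/- 3, the lowest library for Tnfaip3, was the next to highest for Nfkbia, and the 3 NPRC-/-ApoE-/- libraries lay within the ApoE-/- range. The log2 fold change of Nfkbia was -0.01 ± 0.29 (SE, adjusted p = 0.990), and its sign changed with the setting, from -0.16 to 0.34. The deposited Nfkbia locus, chr12:55484824-55492647, reaches past the annotated gene, which spans 55489410 to 55492647.

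In order of their median level over the 8 libraries, the genes ran from Tnfrsf1a (19.1 FPKM) through Nfkb2 (7.65), Tnfrsf1b (7.55), Nfkbia (6.45), Rela (5.65), Rel (4.47), Nfkb1 (4.26), Tnfaip3 (3.36) and the Relb locus (1.96) to Tnf (0.805 FPKM). The ranges over libraries of Tnfrsf1a and Nfkb2 did not overlap, and neither did those of the Relb locus and Tnf. All other neighbours in this order overlapped in range, and Nfkb2 and Tnfrsf1b, and likewise Rel and Nfkb1, each exceeded the other in 4 of 8 libraries. RNA of TNFR1 thus exceeded that of its ligand by 18.4 to 53.9 times in FPKM, and RNA of TNFR2 did so by 7.27 to 24.0 times. FPKM depends on the length assigned to each locus, which is not given in the sources used here, so this order and these ratios depend on it too. In counts, Nfkb1 had 9436 and Tnfrsf1a 9043 in ApoE-/- 1, whereas they had 10089 and 13313 in ApoE-/- 4.

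Ranked by log2 CPM (counts scaled to the size of the library), the same libraries were low for most of the genes. NPRC-/-ApoE-/- 2 was among the 3 lowest libraries for 10 of 10 genes, and NPRC-/-ApoE-/- 3 and ApoE-/- 5 for 7 each. ApoE-/- 3 was among the 3 highest for 9 genes, ApoE-/- 4 for 8 and ApoE-/- 2 for 6. How often each library ranked so among all tested loci was not computed, so these counts are not a trait of the 10 genes. NPRC-/-ApoE-/- 1 had a mean rank of 4.3, close to that of ApoE-/- 1, 4.1, and below it stood ApoE-/- 5 at 3.0. The same 3 libraries were lowest and the same ApoE-/- 3 and 4 highest, though not in the same order, for the summed markers of macrophages, of which Lyz2 made up the most. These summed to 598 FPKM in ApoE-/- 5, 372 FPKM in NPRC-/-ApoE-/- 2 and 291 FPKM in NPRC-/-ApoE-/- 3, and to 1700 and 1820 FPKM in ApoE-/- 3 and 4. Fibroblast markers did likewise in sum, with 187, 101 and 124 FPKM in ApoE-/- 5 and NPRC-/-ApoE-/- 2 and 3, and 375 and 465 FPKM in ApoE-/- 3 and 4. Lum was the largest part of this sum, at 401.3 FPKM in ApoE-/- 4. Pi16 and Dpep1 of the same list did not follow it and were lowest in ApoE-/- 4, at 7.42 and 7.34 FPKM. Pi16 was highest in ApoE-/- 5, at 16.38 FPKM. Dpt was highest in ApoE-/- 2, at 67.38 FPKM, and lower in ApoE-/- 4 (39.25) than in ApoE-/- 5 (41.88). Of the macrophage list, Mrc1 did not follow the sum. It was highest in ApoE-/- 1, at 11.98 FPKM, lower in ApoE-/- 4 (9.37) than in ApoE-/- 5 (10.49), and lowest in the NPRC-/-ApoE-/- libraries. The part of the macrophage or fibroblast markers in the result was not tested. As a description over 8 libraries that share these differences in tissue makeup, Pearson's r of log2 CPM was taken for all pairs of the 10 genes. It was highest for Nfkb1 with Nfkb2 (0.975), then Tnfrsf1a with Nfkb2 (0.939) and Nfkb2 with Rel (0.933), and lowest for Rela with Nfkbia (-0.366).

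**Figure D2:**
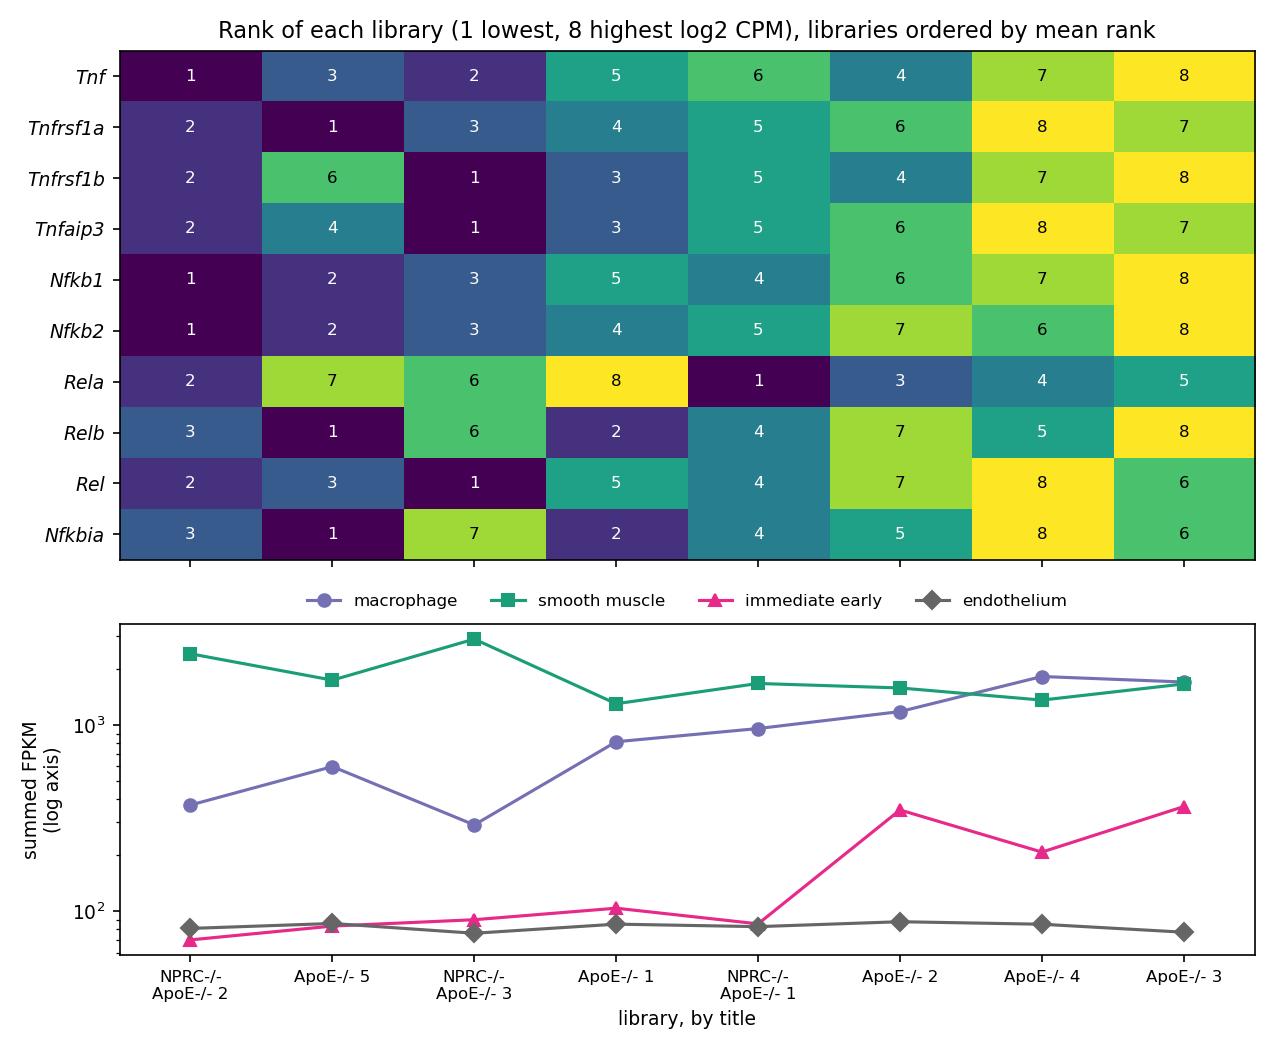
Upper panel, rank of each library (columns, ordered by mean rank) for each of the 10 genes (rows), where 1 is the lowest and 8 the highest log2 CPM. Lower panel, summed FPKM of 4 marker lists in the same libraries on a log axis. NPRC-/-ApoE-/- 2 and ApoE-/- 5 stand at the low end and ApoE-/- 4 and 3 at the high end, Rela departs from this order, and the macrophage sum is highest in the same ApoE-/- 4 and 3.

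Of 36 other genes of TNF and NF-kB signalling, 35 were tested, of which 32 had a lower mean by title, where 50.9% of all loci did. An unadjusted p under 0.05 was reached by 8, all 8 of them lower, against 7.13% of all loci in that direction. Their median log2 fold change was -0.18, and 0 had an adjusted p under 0.05 (edgeR, smallest 0.255). The groups did not overlap for 5 of the 35, against 3.69% of all loci lower without overlap. Birc3, which encodes the ubiquitin ligase cIAP2 of the TNF receptor complex, stood at 3.42, 4.85, 3.75, 4.29 and 2.67 FPKM in ApoE-/- 1 to 5 and at 1.85, 1.72 and 2.32 FPKM in NPRC-/-ApoE-/- 1 to 3. All 3 NPRC-/-ApoE-/- libraries, number 1 included, were thus below every ApoE-/- library, with a log2 fold change of -0.93 ± 0.23 (SE, adjusted p = 0.255). Tnip1, whose product binds A20 and restrains NF-kB, stood at 4.97 to 7.02 FPKM and at 3.98 to 4.73 FPKM, again without overlap, with a log2 fold change of -0.40 ± 0.17 (SE, adjusted p = 0.365). Ripk1, Fadd and Tab2, the other 3 genes without overlap, had log2 fold changes of -0.23, -0.37 and -0.19 and an unadjusted p above 0.05. The locus of Ripk1 also carries Gm17084. For each of the 5, the exact permutation p was 0.0357, the smallest that 5 against 3 libraries can give. Groups without overlap always give this value, so it adds nothing to the lack of overlap.

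Nfkbiz, Nfkbie and Bcl3, which encode IkB-zeta, IkB-epsilon and BCL3, had log2 fold changes of -0.96 ± 0.31, -0.93 ± 0.36 and -0.92 ± 0.30 (SE), with adjusted p of 0.290, 0.328 and 0.290. Bcl3 stood at 3.91 to 8.58 FPKM in the 5 ApoE-/- libraries and at 2.66 to 4.81 FPKM in the 3 NPRC-/-ApoE-/- libraries. Nfkbib, the gene of IkB-beta, had a log2 fold change of -0.26 (adjusted p = 0.704). The IKK complex that phosphorylates IkB, made of the kinases Chuk and Ikbkb and the regulatory subunit NEMO (Ikbkg), had log2 fold changes of -0.18 ± 0.12 for Chuk, -0.06 ± 0.11 for Ikbkb and 0.19 ± 0.22 for Ikbkg (SE), and adjusted p of 0.526, 0.825 and 0.720. Map3k14, which encodes NIK of the non-canonical arm and shares its locus with 1700028N14Rik, had -0.51 ± 0.22 (SE, adjusted p = 0.359). Among the adaptors, Traf1, itself a target of NF-kB, had -0.86 ± 0.34 (SE, adjusted p = 0.330), and Tradd, which couples TNFR1 to the complex, had -0.56 ± 0.34 (SE, adjusted p = 0.483). Casp8, the initiator caspase of the TNFR1 death arm, had -0.46 ± 0.20 (SE, adjusted p = 0.349). Adam17, the sheddase that releases TNF and its receptors, had -0.28 ± 0.17 (SE, adjusted p = 0.483).

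Of 20 genes chosen as known targets of NF-kB, 15 were tested, of which 14 had a lower mean by title, against 50.9% of all loci, with a median log2 fold change of -0.96. An unadjusted p under 0.05 was reached by 7, all lower, against 7.13% of all loci in that direction, and the criterion of the study was met by 5, against 3.47% of all loci. The titled groups overlapped for all 15, and 0 had an adjusted p under 0.05 (edgeR, smallest 0.255). The cytokine Il6 stood at 1.87, 4.57, 8.18, 2.96 and 0.21 FPKM in ApoE-/- 1 to 5 and at 0.67, 0.06 and 0.24 FPKM in NPRC-/-ApoE-/- 1 to 3. ApoE-/- 5 lay among the NPRC-/-ApoE-/- libraries, and the log2 fold change was -3.48 ± 1.15 (SE, adjusted p = 0.294). Il1b, the cytokine cut by the inflammasome, stood at 0.96 to 5.70 FPKM and 0.24 to 1.60 FPKM, with a log2 fold change of -2.25 ± 0.84 (SE, adjusted p = 0.319).

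Cxcl1, a chemokine for neutrophils, stood at 2.77 to 9.46 FPKM in the 5 ApoE-/- libraries and at 1.82 to 2.77 FPKM in the others, with a log2 fold change of -1.51 ± 0.41 (SE, adjusted p = 0.255). Of the endothelial adhesion molecules, Sele had -1.23 ± 0.33 (SE, adjusted p = 0.255), Icam1 -0.72 ± 0.27 (SE, adjusted p = 0.316) and Vcam1 -0.96 ± 0.45 (SE, adjusted p = 0.381). Csf1, the growth factor of macrophages, was the 1 target with a higher mean, at 0.22 ± 0.15 (SE, adjusted p = 0.551). Beside these counts, the immediate early genes had a median log2 fold change of -1.41 and the macrophage markers of -0.97, and their part was not tested. The endothelial markers had a median of -0.07, with 0 of 6 reaching an unadjusted p under 0.05, and 1 of them, Cdh5, was lower without overlap, at 13.38 to 18.3 FPKM against 12.11 to 12.98 FPKM.

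**Figure D3:**
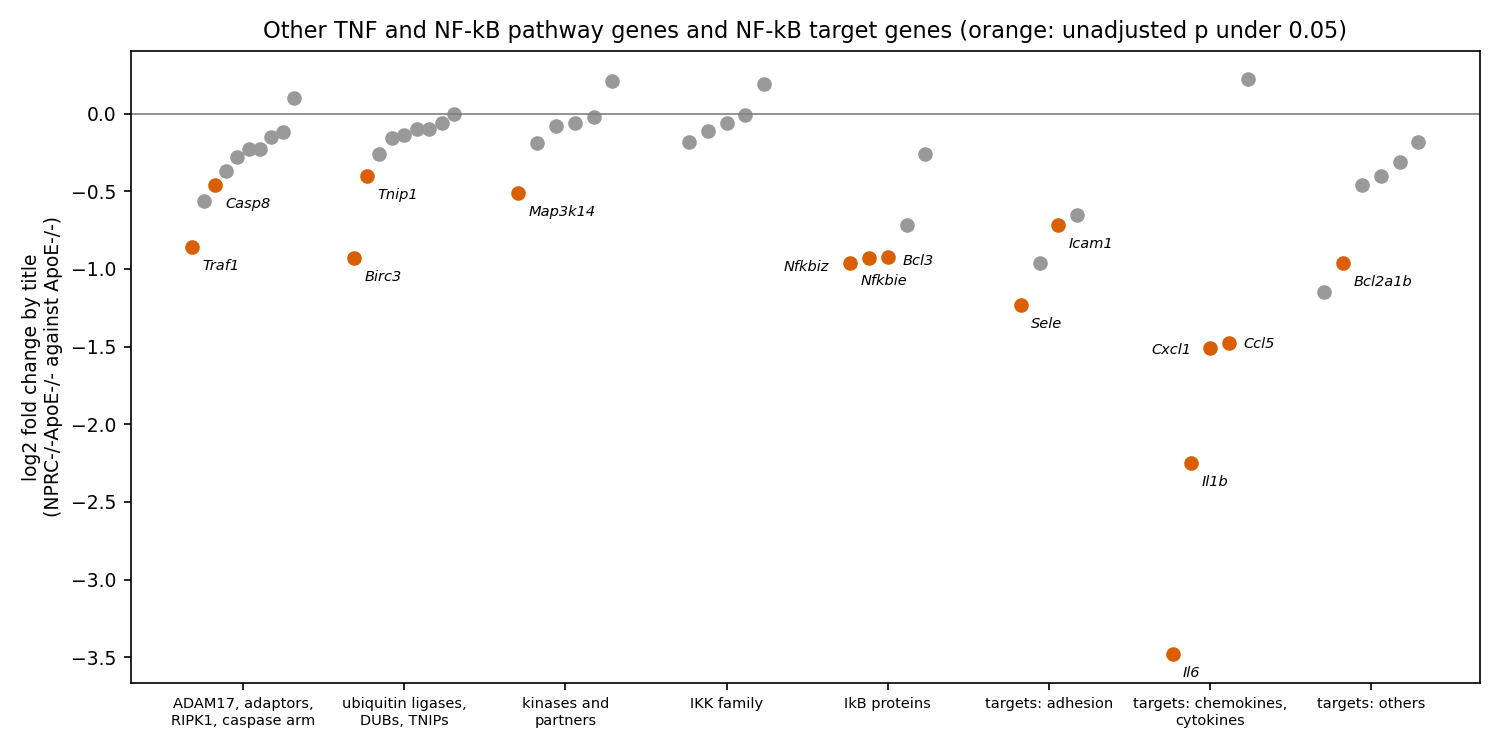
log2 fold change by title (y axis, NPRC-/-ApoE-/- against ApoE-/-) of the 35 tested signalling genes and the 15 tested targets, each a point, by role (x axis), with those of an unadjusted p under 0.05 in orange and named. Of the 50 points 46 lie below 0, from Il6 at -3.48 to Csf1 at 0.22, and the IKK family lies between -0.18 and 0.19.

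By genotype entry, 7 of the 10 genes had a lower and 3 a higher mean in Nprc-/-Apoe-/- than in Apoe-/- aortas, with a median log2 fold change of -0.14, against 51% of all loci lower. Of the 10, 0 had an unadjusted p under 0.05 in edgeR, where 1.31% of all loci did, and 0% of loci had an adjusted p under 0.05. DESeq2 and limma also gave 0 of the 10. The 3 with a higher mean were Nfkbia at 0.28 ± 0.28, Tnfaip3 at 0.14 ± 0.40 and Rela at 0.06 ± 0.16 (SE). Tnfrsf1b had -0.31 ± 0.56, Tnf -0.23 ± 0.53 and Rel -0.20 ± 0.30 (SE), and Tnfrsf1a had -0.12 ± 0.28, Nfkb1 -0.08 ± 0.18, Nfkb2 -0.23 ± 0.28 and the Relb locus -0.16 ± 0.21 (SE). All 7 lay within their standard error of 0, and 6 of them were smaller in size than by title, while that of the Relb locus was larger (-0.16 against -0.09). Of the 50 signalling and target genes, 32 had a lower mean, and 1 reached an unadjusted p under 0.05, with a higher mean. The macrophage sum ran from 372 to 1700 FPKM in the libraries entered as Apoe-/- and from 291 to 1820 FPKM in those entered as Nprc-/-Apoe-/-. The difference between both groupings was not tested, since they use the same 8 libraries.

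**Figure D4:**
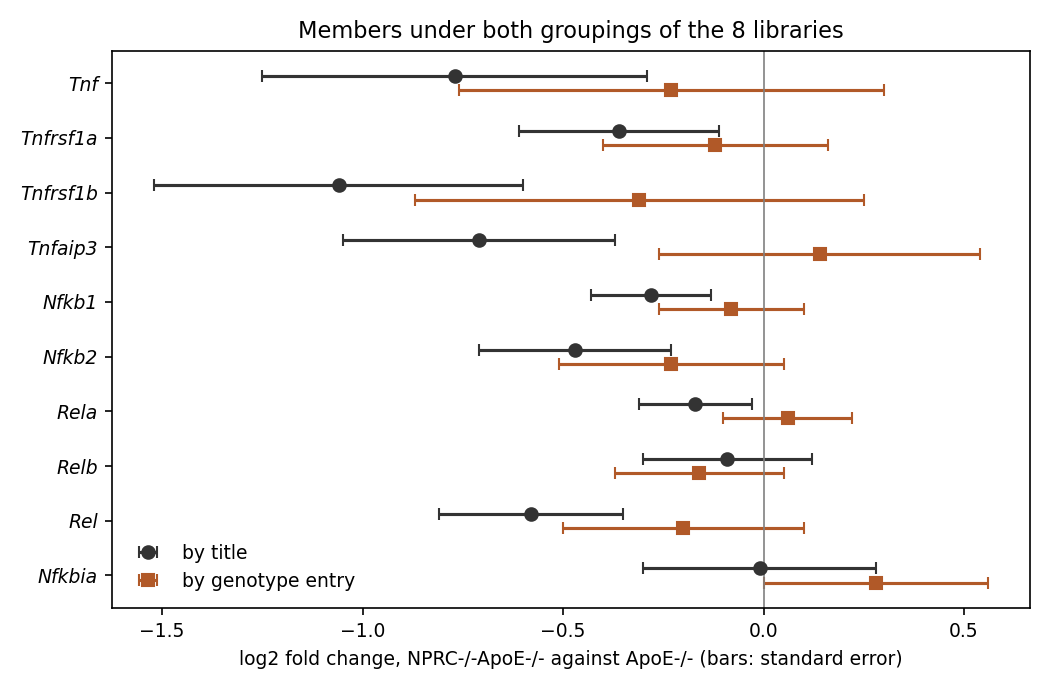
log2 fold change (x axis, NPRC-/-ApoE-/- against ApoE-/-, bars are standard errors) of each of the 10 genes with the libraries grouped by title and by genotype entry. By title all 10 points lie at or below -0.01, and by genotype entry Tnfaip3, Rela and Nfkbia lie above 0.

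In the 4 libraries whose title and genotype entry name the same genotype, the comparison is of ApoE-/- 1, 2 and 3 with NPRC-/-ApoE-/- 3 alone, which was chosen after the data were seen. NPRC-/-ApoE-/- 3 was below all 3 ApoE-/- libraries for 7 genes, namely Tnf, both receptors, Tnfaip3, Nfkb1, Nfkb2 and Rel. It was above all 3 for Nfkbia. The share of all tested loci for which NPRC-/-ApoE-/- 3 was below or above all 3 was not computed. These counts therefore cannot be read as a trait of these genes. The differences in log2 CPM were -1.46 for Tnf, -1.53 for Tnfrsf1b, -0.96 for Rel and -0.99 for Tnfaip3, while they were 0.01 for Rela, -0.06 for the Relb locus and 0.36 for Nfkbia. With a single NPRC-/-ApoE-/- library, these values carry no spread for that genotype.

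The counts by title rested on single libraries. Without ApoE-/- 3, ApoE-/- 4, NPRC-/-ApoE-/- 2 or NPRC-/-ApoE-/- 3, 0 of the 10 genes had an unadjusted p under 0.05 in edgeR, with 6.5 to 10.3% of all loci below it. Without ApoE-/- 2 the number was 1 and without ApoE-/- 1 it was 3, with 10.2% and 13.3% of all loci below that p. Without NPRC-/-ApoE-/- 1 it was 5 and without ApoE-/- 5 it was 6, with 21.6% and 18.7% of all loci below that p. The number of genes with a lower mean was 8 without ApoE-/- 3 or NPRC-/-ApoE-/- 2, 9 without ApoE-/- 4 and 10 otherwise. The number of signalling and target genes with an unadjusted p under 0.05, 15 in all libraries, was 8, 6 and 9 without ApoE-/- 2, 3 and 4, 5 and 4 without NPRC-/-ApoE-/- 2 and 3, and 23 without ApoE-/- 5.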

How the data were processed

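The authors sequenced poly(A) RNA of whole aortas, trimmed the reads with cutadapt 1.9 (per the submitters' processing notes, which also name FastQC and GRCm38), mapped them with HISAT2 and assembled loci with StringTie. They deposited a raw count and an FPKM value for each locus in each library. How counts were made from the assembly, and whether by strand, is not given in the sources used here. Such an assembly can join neighbouring genes, and 1710 loci carry more than 1 gene name. The table had 0 columns without a sample.

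Here, loci with at least 1 FPKM in 3 libraries were tested on the deposited counts with edgeR 4.0.16 (R 4.3.3), using TMM scaling, the quasi-likelihood test and Benjamini-Hochberg adjustment over 20506 loci. Single genes were also compared by two-sided exact permutation tests of log2 CPM (prior count 2). Alternatives were limma 3.58.1, DESeq2 1.42.0, other filters and scalings, a replicate block and each library left out. The biological coefficient of variation was 0.327. Tested on simulated data of 20506 loci by title, 24% of loci changed by 1 and 91% of those changed by 2 on the log2 scale were called at an adjusted p under 0.05. The simulated loci varied independently, with the spread typical of their level and no differences in tissue makeup. These shares therefore do not say how often such changes would be found in the data. Replicates are titled separately, and p-values measure only the spread between these libraries. The paper gives 5 mice per group, and 8 libraries were analysed.

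The 10 genes, the signalling, target and marker lists and the tests were chosen with earlier results of these data known. All 10 were named. Of the lists, genes with an unadjusted p under 0.05 and no overlap by title were named, and others for their role. Coordinates are from the deposited assembly (GRCm38) and GENCODE M21, and sites from RefSeq (GRCm38.p6).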

Additional observations from a re-analysis of the deposited data

Results flagged for a closer look

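Among the 5 libraries entered as Apoe-/-, the library titled ApoE-/- 3 stood far from the others for Tnfrsf1b, at a log2 CPM of 7.36 with the next library at 5.64. The gap was 0.861 of the whole range, above Dixon's critical value of 0.71. Of 20 groups of 5 libraries examined, 1 stood out in this way, and chance gives about 1.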

How the results depend on the processing

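By title, 2 of the 10 genes had an unadjusted p under 0.05 in edgeR, where 13.6% of all tested loci did. With array quality weights the number was 7, where 28.8% of loci did. Of the 5 genes left by a minimum mean of 5 FPKM, 0 did, where 17.3% of loci did. With a replicate block it was 1, where 8.84% did, and with each library left out 0 to 6, where 6.5 to 21.6% did. In the same fits, and beside the same shares of all loci, the signalling and target genes with such a p numbered 15 in edgeR. The number was 27 with array quality weights, 5 of the 16 left by a minimum mean of 5 FPKM, and 4 to 23 with each library left out. By genotype entry the 10 genes gave 0 to 1 with each library left out, where 0.897 to 3.56% of all loci had such a p. The median log2 fold change of the 10 genes there was -0.50 to 0.03. A replicate block is of doubtful use, since deviations of libraries with the same number correlated at -0.27, -0.13 and -0.01, so the numbers do not pair the libraries. The block left Rel alone, against 2 genes in the same 6 libraries without it, where 12.9% of all loci had such a p.

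By title, Nfkbia turned positive at 0.01 and 0.02 in limma with a pseudocount of 1 and 0.1, 0.10 with a minimum mean of 5 FPKM, 0.07 with and without the replicate block in 6 libraries, and 0.34 in the 4 libraries of agreeing labels, where Rela was 0.00. With each library left out, Nfkbia ran from -0.16 to 0.22 and Relb from -0.20 to 0.02. By genotype entry, Tnfaip3 was -0.03 and -0.07 in limma with these pseudocounts and -0.17 with array quality weights, where Nfkbia was -0.01. With each library left out by genotype entry, Tnfaip3 ran from -0.56 to 0.46, Tnf from -0.79 to 0.12, Tnfrsf1a from -0.51 to 0.07, Tnfrsf1b from -0.66 to 0.29, Nfkb1 from -0.21 to 0.00 and Rel from -0.57 to 0.02. Causes were not tested. By title, 183 of 195 values of single genes kept their direction, and by genotype entry 143 of 155. Tnf, with 34 to 185 counts per library, is the gene that depth limits most.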

Other observations

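Over the 8 libraries and 13434 genes, those whose log2 CPM was most alike to Tnf were Plxna3 (Pearson's r 0.981), Atrx (0.98), Dram2 (0.977), Gm11805 (0.976) and Gm10521 (0.975). For Nfkbia they were Gm43344 (0.985), Spout1 (0.984), Mpg (0.969), Krtcap2 (0.967) and Odc1 (0.965), with no gene shared by both lists. These are the highest of many values over few libraries that share depth and tissue makeup, and are given as a description.

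Of the targets that were not tested, Ccl2, the chemokine for monocytes, stood at 0.23 to 0.88 FPKM in the 5 ApoE-/- libraries and at 0.22 to 0.59 FPKM in the 3 NPRC-/-ApoE-/- libraries. Cxcl2, a chemokine for neutrophils, stood at 0.23 to 1.14 FPKM and 0.09 to 0.82 FPKM, where ApoE-/- 5 again lay among the low libraries.

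Fibroblast markers, with Lum as the largest part, summed to 187 to 465 FPKM in the 5 ApoE-/- libraries and 101 to 255 FPKM in the 3 NPRC-/-ApoE-/- libraries. Adipocyte markers summed to 108 to 518 FPKM and 259 to 478 FPKM, T cell markers to 3.86 to 7.92 FPKM and 2.11 to 5.01 FPKM. B cell markers summed to 17.2 FPKM in ApoE-/- 2 and to 0.44 to 3.0 FPKM in the other libraries. Erythroid markers ran from 112 to 1800 FPKM and skeletal muscle markers from 0.52 to 7.38 FPKM over the 8 libraries.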
